A study of Mus musculus with 4 samples.

Results

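The H3K23pr peaks of middle strength were all called peaks on chromosomes 1 to 19 chosen by the pileup, which had to be 8 to 10 immunoprecipitated (IP) fragments over the summit. They numbered 3367 of the 96304 peaks in the WT and KO lists. WT gave 2143 of its 54397 peaks and KO gave 1224 of its 41907. Because they were selected on fragment number, their fragments, fold and caller scores are given as a description only. H3K23pr was mapped by chromatin immunoprecipitation sequencing in liver of male C57BL/6 mice. WT stands for the RPN11 flox/flox control, and KO for mice in which RPN11 was deleted in hepatocytes. The series title concerns fatty liver disease and the inhibition of RPN11. Age, the driver of the deletion and the number of mice per library are not given in the sources used here. The other cells of the KO liver kept the gene. Each genotype had 1 IP and 1 input library, so differences between WT and KO have no replicate check and no test. In whole liver, fewer cells that carry the mark and less of it per cell cannot be told apart.

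Propionylation adds a propionyl group, taken from propionyl-CoA, to a lysine. On histone H3 it is one of the short-chain acyl marks that neutralise the charge of the lysine, and acyl marks of this kind are known from active promoters and enhancers. Propionyl-CoA arises in liver from odd-chain fatty acids, branched amino acids and cholesterol side chains. RPN11, encoded by Psmd14, is the subunit of the proteasome lid that removes ubiquitin from substrates before they are degraded.

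Sequences are shown for the peaks that lay over an annotated promoter, the place where an acyl mark is best known. Members touched 9 of 31396 promoter windows in WT and 3 in KO, which is 0.0287% and 0.00956% of the windows. Counted by midpoint, 0.280% of WT members and 0.245% of KO members lay in a window. The windows made up 0.360% of the chromosome length, so these low numbers do not show that members avoided promoters. A window ran from 250 bases before a RefSeq start site to 50 after it. The coding genes were Snrpf, Trim38, Ablim1, Vamp8 and Elp6 in WT and Trpm8 and Tmem236 in KO. The 250 bases before the start site are printed 5′ to 3′ on the strand of the gene, from RefSeq on GRCm38.p6 (the assembly of mm10), with the bases under the peak in capitals. In Trim38 and Tmem236 the peak lay past the start site, so no base would be in capitals, and they are not printed.
Snrpf (WT peak, chr10:93589659-93589908, minus strand): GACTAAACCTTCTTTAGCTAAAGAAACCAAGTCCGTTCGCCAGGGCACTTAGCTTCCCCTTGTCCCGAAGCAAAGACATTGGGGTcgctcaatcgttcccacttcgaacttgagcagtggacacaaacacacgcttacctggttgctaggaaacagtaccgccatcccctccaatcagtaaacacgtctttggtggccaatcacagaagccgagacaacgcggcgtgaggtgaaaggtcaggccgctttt
Ablim1 (WT peak, chr19:57274669-57274918, minus strand): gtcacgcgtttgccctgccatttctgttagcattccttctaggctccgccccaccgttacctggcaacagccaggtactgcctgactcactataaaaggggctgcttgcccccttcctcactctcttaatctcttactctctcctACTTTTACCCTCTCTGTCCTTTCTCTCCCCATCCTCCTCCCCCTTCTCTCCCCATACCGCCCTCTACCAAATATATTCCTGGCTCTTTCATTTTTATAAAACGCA
Vamp8 (WT peak, chr6:72390668-72390917, minus strand): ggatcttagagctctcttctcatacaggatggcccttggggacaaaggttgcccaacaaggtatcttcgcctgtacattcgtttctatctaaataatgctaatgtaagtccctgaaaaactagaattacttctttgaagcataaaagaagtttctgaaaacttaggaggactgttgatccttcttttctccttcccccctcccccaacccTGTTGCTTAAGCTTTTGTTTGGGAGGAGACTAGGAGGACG
Elp6 (WT peak, chr9:110304942-110305191, plus strand): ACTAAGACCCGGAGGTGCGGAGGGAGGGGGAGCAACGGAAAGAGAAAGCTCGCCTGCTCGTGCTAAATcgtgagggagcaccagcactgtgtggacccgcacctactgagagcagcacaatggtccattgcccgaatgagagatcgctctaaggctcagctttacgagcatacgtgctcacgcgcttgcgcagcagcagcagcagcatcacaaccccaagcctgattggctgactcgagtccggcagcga
Trpm8 (KO peak, chr1:88306485-88306734, plus strand): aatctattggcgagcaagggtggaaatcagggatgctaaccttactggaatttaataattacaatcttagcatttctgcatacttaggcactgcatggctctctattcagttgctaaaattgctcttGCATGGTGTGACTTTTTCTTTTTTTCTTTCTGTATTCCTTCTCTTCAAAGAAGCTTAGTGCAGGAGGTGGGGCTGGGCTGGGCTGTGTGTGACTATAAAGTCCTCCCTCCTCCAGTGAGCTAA
Snrpf encodes a core protein of the spliceosome. Its WT peak had 9 fragments and covered 85 of the printed bases, with the summit 231 bp before the start site. The printed stretch was 52.0% G or C and held 14 CpG. Ablim1 encodes an actin-binding LIM protein, and its peak of 9 fragments spanned the start site. Vamp8 encodes a SNARE of vesicle fusion, and its peak of 9 fragments had the summit 5 bp past the start site. Elp6 encodes a subunit of the Elongator complex, which modifies tRNA. Its peak of 8 fragments had the summit 296 bp before the start site, in a stretch with 17 CpG. In KO, the Trpm8 peak of 9 fragments lay wholly in the window, and its promoter stretch held 1 CpG. Trpm8 encodes the cold-sensing ion channel of sensory neurons.

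The printed stretches had no motif in common among the 7 that were searched on both strands. The median stretch of all windows held 6 CpG and was 52.4% G or C. CCAAT was found in Snrpf, Elp6 and Trpm8, against 33.7% of all windows. TATAAA was found in Ablim1 and Trpm8, against 12.4%, and GGGCGG in Ablim1, against 33.0%. TGTTTAC, a forkhead core, was in Snrpf, against 3.21%. TGACGTCA, CAAAGTCCA and the NRF1 motif were in none of the 5, against 1.58%, 0.392% and 0.774% of windows. A match is a description of letters and not a binding site. The nearest KO peak was 69.4 kb away from the Snrpf peak, 8.22 kb from Ablim1, 44.7 kb from Vamp8 and 91.4 kb from Elp6. The nearest WT peak was 9.14 kb from the Trpm8 peak. No promoter peak of this strength had a peak of the other list within 1 kb. Over all members only 5.88% in WT and 7.92% in KO had one, so these few peaks do not set promoters apart.

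Near start sites the members were about as frequent as the length near start sites is. A start site lay within 1 kb of 48 WT members, 2.24%, and of 25 KO members, 2.04%, while 2.21% of the chromosome length lay that near to one. Among the weaker peaks, of 4 to 7 fragments, the shares were 1.80% in WT and 1.21% in KO. The KO share of the members had an interval of 1.33 to 3.00% and that of the weaker KO peaks 1.10 to 1.32%. In the promoter windows the member shares by midpoint were 0.280% (0.103 to 0.608) in WT and 0.245% (0.0506 to 0.715) in KO. The weaker peaks had 0.200% and 0.161% there. The member intervals hold these values and the 0.360% of length in the windows. Intervals here are exact (Clopper-Pearson) 95% binomial intervals, cover counting error only and treat neighbouring peaks as independent.

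The members were small peaks over a low background. In WT, 1551 had 8 fragments, 438 had 9 and 154 had 10. In KO the numbers were 888, 244 and 92. Up to 2 fragments with the same ends were kept by the caller, so 8 fragments can be as few as 4 different ones. The local background that the fold implies had a lowest common level of 0.692 fragments in WT and 0.568 in KO, and 846 WT members and 721 KO members stood at that level. There the fold follows from the fragment number alone. It was 5.32, 5.91 and 6.50 for 8, 9 and 10 fragments in WT and 5.74, 6.38 and 7.02 in KO, so a higher KO fold at equal fragments is the lower KO background. Members had median widths of 148 bp (WT) and 107 bp (KO), beside mean IP fragment sizes of 97 and 71 bp, from which it cannot be told apart. Just below the lower limit, 4087 WT and 2535 KO peaks had 7 fragments, with median folds of 4.70 and 5.10. That KO value is near the WT median of 5.22 at 8 fragments, so the same limits do not select equal folds in both lists. The numbers of WT and KO members therefore do not compare the amount of mark. Just above the upper limit, 50 WT and 45 KO peaks had 11.

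Members lay nearer to genes than weaker peaks did. Of the WT members, 176 had their midpoint within 2 kb of an end of a protein-coding gene, 8.21% (7.08 to 9.46), against 5.33% (5.14 to 5.53) of weaker WT peaks. In KO the number was 76, 6.21% (4.92 to 7.71), against 4.03% (3.84 to 4.23). These zones make up 5.84% of the chromosome length. A further 952 WT members, 44.4%, and 594 KO members, 48.5%, lay deeper inside a gene, where 37.7% of the length is. The other 1015 WT and 554 KO members were outside genes. Their median distance to a gene was 40.9 kb in WT and 47.1 kb in KO, and weaker peaks outside genes were farther away, at 79.7 and 92.3 kb. Of these outside members 76 in WT and 30 in KO lay more than 500 kb from any coding gene. The most remote WT member was 2090 kb from Cdh20, a cadherin gene on chromosome 1, and the most remote KO member 2038 kb from Pcdh20, a protocadherin gene on chromosome 14. An annotated lncRNA held 159 of the outside WT members and 76 of the KO members. Both kinds of gene end were used about equally where the strand was known, with 75 starts and 64 finishes in WT and 33 and 34 in KO.

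**Figure D1:**
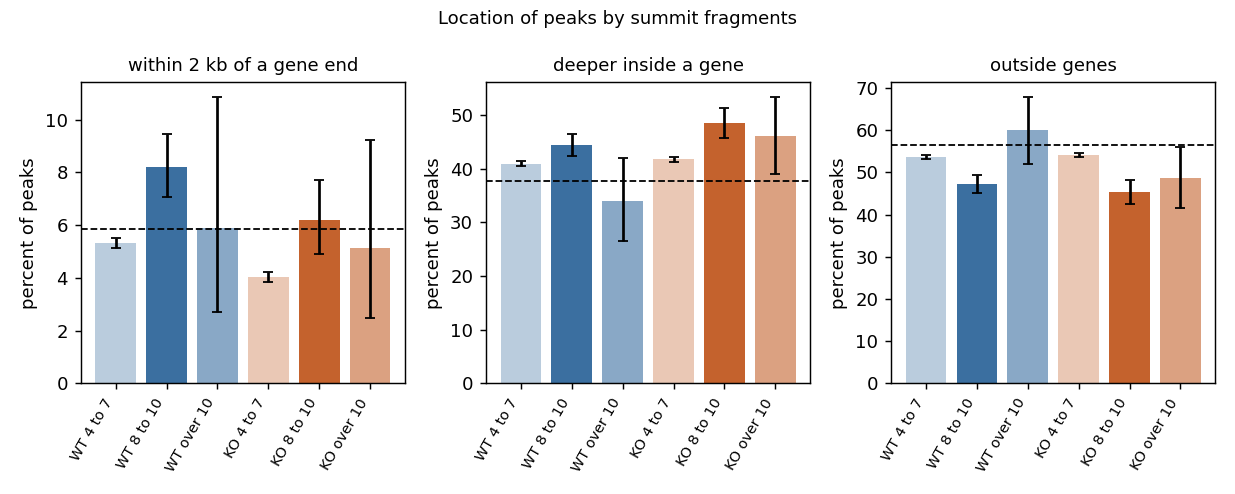
Percent of WT and KO peaks (y axis) at 3 locations for peaks of 4 to 7, 8 to 10 and over 10 fragments. Bars are single-library shares with exact 95% intervals and the dashed line is the share of chromosome length. Peaks of 8 to 10 fragments are above peaks of 4 to 7 near gene ends and inside genes, with near-end shares of 8.21% in WT and 6.21% in KO.

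The number of members rose with the number of genes around them, in WT up to the richest windows and in KO up to 10 to 19 genes. Chromosomes were divided into 2413 windows of 1 Mb. In WT the mean was 0.416 members in the 209 windows without a coding gene, 0.614 with 1 to 4 genes, 0.961 with 5 to 9, 1.13 with 10 to 19, 1.30 with 20 to 29 and 1.59 in the 117 windows with 30 or more. All WT peaks together numbered 18.3 per window without a gene, 23.9 at 5 to 9 genes and 19.1 in the richest windows. Members thus made up 2.28% of the WT peaks in gene-free windows and 8.34% in the richest.

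In KO the mean was 0.206 members without a gene, 0.376 with 1 to 4, 0.601 with 5 to 9, 0.704 with 10 to 19, 0.544 with 20 to 29 and 0.538 with 30 or more. All KO peaks numbered 15.6 per window without a gene, 19.2 at 5 to 9 genes and 10.0 in the richest windows, and the share that were members went from 1.32% to 5.38%. The WT list had 2.02 members for each KO member in gene-free windows, 1.60 at 10 to 19 genes and 2.95 at 30 or more. Over peaks of all strengths the same ratio was 1.18, 1.44 and 1.9, so it moved with gene number in the whole lists too. Since the fragment limits do not select equal folds in both lists, the ratio of members does not compare the amount of mark. Leaving out the 5 windows with 8 or more members of one list gave 0.585 KO members at 10 to 19 genes. The background of the members moved with gene number too. In WT its median went from 0.692 in gene-free windows to 1.01 in the richest, and the KO medians were 0.568 and 0.736. Members with a background of at most 2 times the lowest went from 0.354 to 1.17 per window in WT. In KO they went from 0.201 to 0.419, with the highest value, 0.554, at 10 to 19 genes. The part of base composition in this order was not tested.

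**Figure D2:**
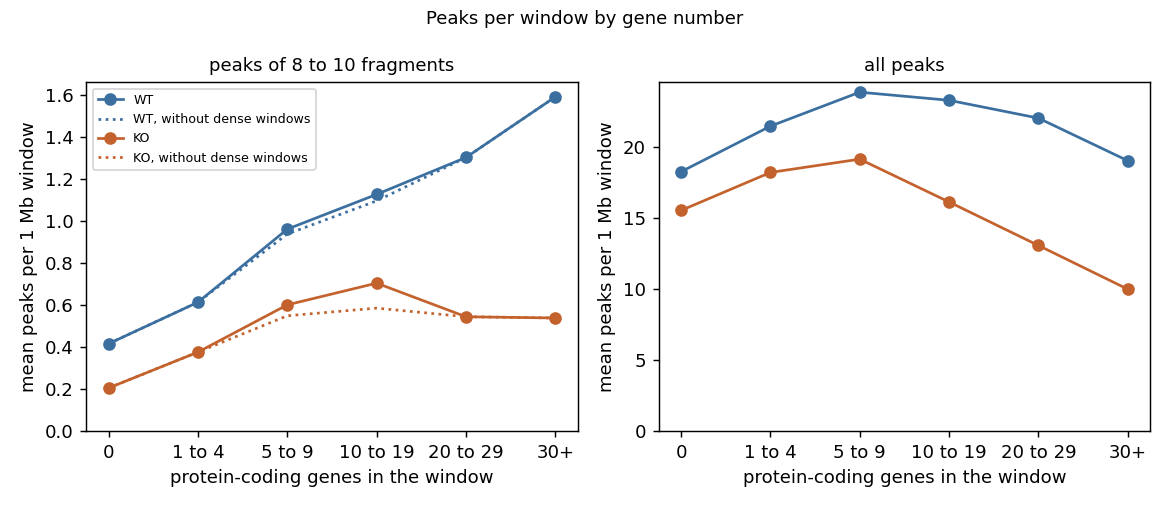
Mean number of peaks per 1 Mb window (y axis) by the number of protein-coding genes in the window (x axis), for peaks of 8 to 10 fragments on the left and all peaks on the right. Points are means over windows of 1 library, and dotted lines leave out the 5 dense windows. WT peaks of 8 to 10 fragments go from 0.416 to 1.59 per window, while all WT peaks start at 18.3 and end at 19.1.

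2 gene-rich windows with several WT members and few KO peaks are described as single sites. On chromosome 10 from 80 to 81 Mb, WT had 6 members among 15 peaks and KO had no peak at all. The WT members lay in Sbno2, a transcriptional regulator gene (8 fragments), in Stk11, which encodes the kinase LKB1 that activates AMPK (10 fragments), and in Ndufs7, a complex I subunit gene (10 fragments). Another of 9 fragments was 949 bp from Reep6. On chromosome 8 from 70 to 71 Mb, WT had 5 members among 8 peaks and KO had 0 among 2. Of these, the members of 10 fragments were in Lrrc25 and 816 bp from Pgpep1, and Ell, an elongation factor gene, held 1 of 8 fragments. The nearest KO peak to any of these 11 WT members was 138 kb away, from the one in Kcnn1. Their backgrounds ran from 0.788 in Kcnn1 to 2.18 in Ndufs7, above the lowest common WT level of 0.692. With 10 fragments, Stk11 and Ndufs7 had folds of 4.32 and 3.46, against 6.50 for 10 fragments at that lowest level. These windows were picked after their values were seen.

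A peak of the other genotype was seldom near a member. A KO peak lay within 1 kb of 126 of the 2143 WT members, 5.88% (4.92 to 6.96), where the share over all autosomal WT peaks was 4.97%. A WT peak lay within 1 kb of 97 of the 1224 KO members, 7.92% (6.47 to 9.58), where it was 6.63% over all KO peaks. The member share is thus near the background of the whole list in both genotypes. The stretch within 1 kb of a KO peak was 3.49% of the chromosome length, and that within 1 kb of a WT peak 4.64%. Direct overlap was found for 32 WT members, 1.49%, against 0.699% of weaker WT peaks. It was found for 36 KO members, 2.94% (2.07 to 4.05), against 0.919% of weaker KO peaks.

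Within the members the share near the other genotype was higher at more fragments. In WT it was 5.22% at 8 fragments, 6.39% at 9 and 11.0% at 10, and in KO 6.87%, 10.2% and 12.0%. Just below the members the order broke, because peaks of 7 fragments had 6.19% in WT and 8.88% in KO, above the values at 8. The 10-fragment members are few, and their intervals reach into those of 8 fragments in KO. Above 10 fragments the shares were 45.1% in WT and 31.8% in KO. The partner was mostly a weaker peak. Of the 126 WT members with a near KO peak, 107 had one of 4 to 7 fragments, 14 one of 8 to 10 and 5 a stronger one. For the 97 KO members the numbers were 69, 14 and 14. WT members with a near partner had a median width of 165 bp and those without 147 bp. In KO the widths were 129 and 106 bp.

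**Figure D3:**
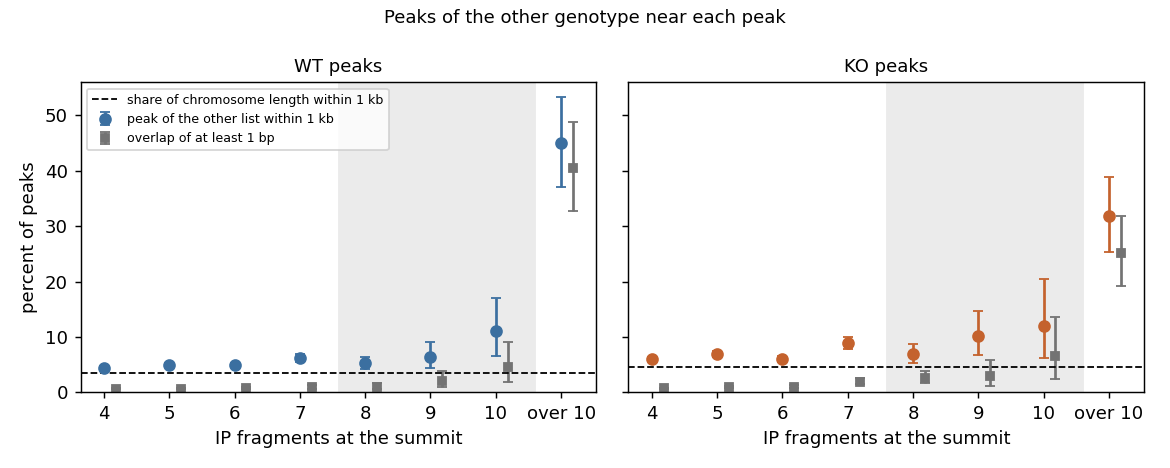
Percent of peaks (y axis) with a peak of the other list within 1 kb (circles) or overlapping (squares) by fragments at the summit (x axis), with exact 95% intervals from 1 library each. The dashed line is the share of chromosome length within 1 kb of the other list, and grey marks 8 to 10 fragments. At 7 fragments the shares within 1 kb are 6.19% (WT) and 8.88% (KO), and at 8 fragments 5.22% and 6.87%. At 10 fragments they are 11.0% and 12.0%, and above 10 they are 45.1% and 31.8%.

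Of the WT members near gene ends, 3 of 176 had a KO peak within 1 kb, 1.70% (0.353 to 4.90). Inside genes it was 69, 7.25% (5.68 to 9.08), and outside 54, 5.32% (4.02 to 6.89). The near-end interval overlaps that of outside members and holds the 3.49% of length within 1 kb of a KO peak. KO peaks of all strengths were also few near gene ends, with 4.10% of them on 5.84% of the length. In KO 4 of 76 near gene ends, 5.26% (1.45 to 12.9), had a WT peak within 1 kb. There were 49 inside genes, 8.25%, and 44 outside, 7.94%, so the KO classes do not separate. The nearest KO peak was a median of 18.1 kb from a WT member, and for 227 WT members, 10.6%, it was more than 100 kb away. The nearest WT peak was 11.5 kb from a KO member, and for 14 KO members, 1.14%, it was that far.

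There were 14 places where a WT and a KO member lay within 1 kb of each other. In 7 of them the peaks overlapped, by 78 to 357 bp. The widest overlap was in Nsmce2, which encodes a SUMO ligase of the SMC5/6 DNA repair complex, with 8 fragments in WT and 10 in KO at backgrounds of 1.45 and 0.773. A peak 47.7 kb from Jak1, the kinase of interferon and cytokine receptors, had 10 and 8 fragments and an overlap of 317 bp. Klhl1, an actin-binding Kelch protein gene, had 9 and 8, and Styk1, a kinase gene, 9 and 9. Spata1, a testis gene, had 9 in WT and 10 in KO.

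The other overlaps were outside coding genes. One was 270 kb from Cenpc1, with 8 and 9 fragments, and the other was in the lncRNA 2810404M03Rik, with 9 and 8. Without overlap, St7 had 10 fragments in WT and 8 in KO at a gap of 69 bp, Abl2 had 8 and 10 at 86 bp, and Slc25a17 had 8 and 8 at 215 bp. Psmd13, which encodes a lid subunit of the proteasome beside RPN11, had 8 and 8 at 461 bp. Its neighbour Sirt3, a mitochondrial deacylase gene, shares these peaks. The remaining 3 pairs lay in the dense windows described next. In 8 of the 14 pairs at least 1 of the peaks had a background over 2 times the lowest of its list.

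Members were spread thinly, with 0.892 per Mb in WT and 0.509 in KO and median gaps of 271 and 444 kb. No WT member was found in 1155 of the 2413 windows and no KO member in 1580. Within 100 kb of another member of the same list were 539 WT members, 25.2%, and 296 KO members, 24.2%. The share of length that near to a member was 15.5% in WT and 8.63% in KO. Another peak of any strength of the same list lay within 1 kb of 120 WT members, 5.60%, against 5.83% of weaker peaks. In KO it lay within 1 kb of 146, 11.9% (10.2 to 13.9), against 5.93%. Without the 5 dense windows the KO value was 7.44%, so these windows hold much of the KO difference.

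The densest window was on chromosome 1 from 85 to 86 Mb, with 50 KO members and 5 WT members. It holds Sp100, Sp110 and Sp140, genes of interferon-induced nuclear body proteins, and predicted genes. KO had 161 peaks of any strength there, 42 of them above 10 fragments, and WT had 24 and 8. Sp140 alone held 11 KO members of 8 to 10 fragments and no WT peak, and the nearest WT peak was 10.5 to 48.9 kb away. Of the predicted genes, Gm38510 held 14 KO members, Gm7592 held 9 and A530032D15Rik held 7. The median background of the members was 1.97 in WT and 1.17 in KO.

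The second was on chromosome 8 from 20 to 21 Mb, around Defb33 and predicted genes beside the defensins, with 32 KO and 8 WT members. Here WT had 12 peaks above 10 fragments among 26, and KO 5 among 115, so the stronger peaks were the larger part in WT. The member backgrounds were 1.96 in WT and 0.846 in KO. The window at 147 to 148 Mb on chromosome 4, with a cluster of Zfp zinc finger genes, had 9 KO and 6 WT members, at backgrounds of 0.568 and 2.18. The neighbouring window had 6 KO members and 0 in WT, and Zfp993 held 5 KO members. Near-identical gene copies are known from these clusters, so the copy to which a fragment belongs is uncertain.

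The other dense windows held more WT than KO members. Chromosome 4 from 60 to 61 Mb, with the genes of the major urinary proteins that hepatocytes secrete, had 8 WT and 3 KO members. They stood mostly between the genes, and 1 lay in Mup11 with 8 fragments, 75 bp from a KO peak. These genes are near-identical copies too. Chromosome 6 from 108 to 109 Mb had 8 WT members and 1 KO member. There 2 WT members were in Sumf1, which encodes the activator of sulfatases, and 2 in Itpr1, the IP3 receptor calcium channel gene, which also held the KO member of 8 fragments. The other 4 lay outside coding genes, 3 of them within 3 kb between Itpr1 and Bhlhe40.

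**Figure D4:**
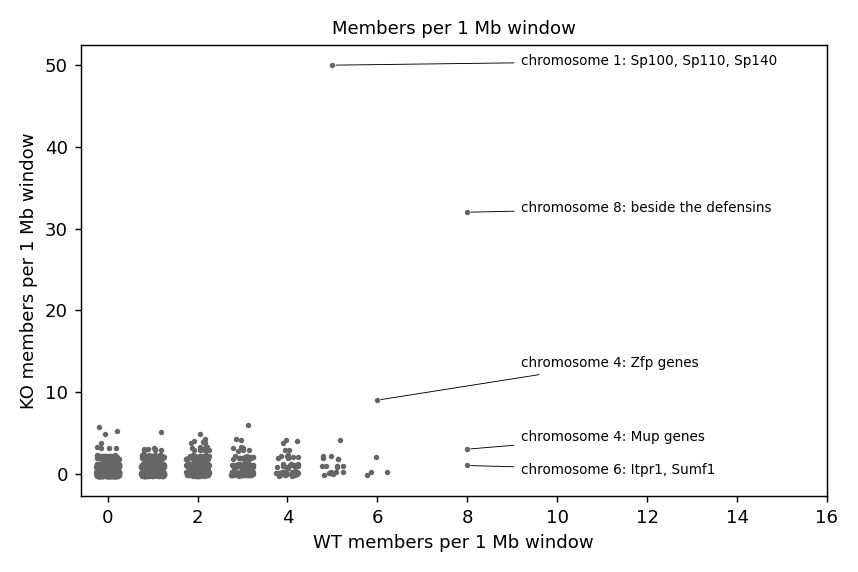
KO members (y axis) against WT members (x axis) in each of 2413 windows of 1 Mb, with points other than the 5 dense windows moved slightly at random so that they can be seen. The window of Sp100, Sp110 and Sp140 stands at 50 KO and 5 WT members, and the window beside the defensins at 32 and 8.

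A member lay in a protein-coding gene or the 2 kb around it for 1064 genes in WT and 598 in KO, which is 5.15% and 2.89% of 20665 genes. Members of both lists were found in 118 genes, 0.571%. These are 11.1% of the WT genes and 19.7% of the KO genes. In 9 of the 118 the peaks of both lists were within 1 kb, and their median nearest distance was 27.8 kb. The genes were long, with a median length of 80.1 kb in WT, 93.2 kb in KO and 218 kb for both, against 17.5 kb over all genes. With genes divided by length into 5 equal classes, 15.2% of the longest class held a WT member and 9.19% a KO member, and of the shortest 0.702% and 0.194%. Per Mb of gene the longest class was not the richest. WT had 1.17 members per Mb in the shortest class, 1.50 in the middle and 0.978 in the longest, and KO had 0.335, 0.721 and 0.609.

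Adk, which encodes adenosine kinase, held 4 members of each list, the most of any gene outside the dense windows in both lists together. The WT members had 10, 8, 10 and 8 fragments and the KO members 8 each. They interleaved along the gene without overlapping, and the closest WT and KO members stood 1.26 kb apart. Adk had 15 WT and 44 KO peaks of any strength. Ghr, the growth hormone receptor gene through which the liver makes IGF1, had 3 WT members of 8, 10 and 8 fragments and no KO member among 21 KO peaks. Abcg2, an efflux transporter gene, had 5 KO members of 8 or 9 fragments, 4 of them within 2 kb of each other, and no WT member among 8 WT peaks. Of other genes with many members, Gpc5 (a glypican gene) and Macrod2 had 4 in WT, Syt1 (a synaptotagmin gene) 3 in WT and Cpeb3 (an RNA-binding protein gene) 3 in KO.

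Genes with strong members of both lists were Dlg1, Zbtb20, Rad51b, Gsk3b, Pfkfb2, Kif26b, Adk, Ddah1, Abl2 and Kcnt2. Zbtb20, a repressor of fetal liver genes, had 10 fragments in both lists at sites 120 kb apart, among 37 peaks of each list. Gsk3b, a kinase that restrains glycogen synthesis, had 9 fragments in both, 3.93 kb apart. Pfkfb2, an enzyme gene of fructose 2,6-bisphosphate metabolism, had 9 fragments in WT and 8 in KO, 668 and 462 bp from opposite ends. Ddah1, which breaks down an inhibitor of nitric oxide synthesis, had 9 and 10 as its strongest, with 3 WT and 2 KO members. Dlg1, a scaffold gene, had 1 WT member and 3 in KO.

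Within 2 kb of a gene end, 210 genes had a WT member and 91 a KO member, 1.02% and 0.44% of genes. Here a peak counted when any base of it lay in the 2 kb. By caller p the leading genes in WT had 10 fragments and were Ndufa10 (complex I), 473 bp from the end, Dnajc19 (mitochondrial import), 367 bp, Qk (an RNA-binding protein), 1782 bp, Traf1 (TNF receptor signalling), 1933 bp, and Pramel32, from whose end the midpoint was 2080 bp. Cnksr3, Slc13a4 (a sulfate transporter) and Syce1 (meiotic synapsis) also had 10 fragments, and the peak shared by Pfkfb2 and AA986860, 668 and 2021 bp from their ends, had 9. In KO the 10 genes with the lowest caller p had 9 fragments, while the Ugt1a1 peak of 10 fragments, over a higher background, was 217 bp from an end. The 10 included Mmp1b, a collagenase gene, 87 bp from its end, Olfr1249, an olfactory receptor gene, 561 bp, Ehbp1, 1379 bp, Pnp (purine nucleoside phosphorylase), 1445 bp, and Ly6f, 1553 bp. The rest of the 10 were Ccdc112, Cstf3, Nckap5 and the peak between Ccdc18 and Tmed5. Of these 20 genes, Dnajc19, Cnksr3, Pfkfb2 and Ehbp1 held a member of the other list, and only the peak of Ccdc18 and Tmed5 had a peak of the other genotype within 1 kb.

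Liver pathways were read from 21 gene lists, of whose 553 autosomal genes 50 held a WT member, 30 a KO member and 11 both. Of the 28 glucose and insulin signalling genes, 8 held a WT member (28.6%, beside 5.15% of all genes), with 10 members where the density over all genes would give 2.03. Among them were Ghr, Pcx (pyruvate carboxylase, 10 fragments), Pik3ca (a PI3-kinase subunit, 9), Gsk3b (9), Ugp2 (which makes UDP-glucose, 9) and Irs2 (an insulin receptor substrate, 8). In KO 2 of 28 held a member, among them Gsk3b with 9 fragments, where the density would give 1.21. Over peaks of all strengths the order was the other way, with 46 WT peaks and 84 KO peaks in this list, against 44.7 and 34.1 at the overall density. Members made up 21.7% of the WT peaks in this list, beside 4.55% of all WT peaks in genes. They made up 2.38% of the KO peaks, near the 3.54% of all KO peaks in genes. Irs2 had no KO peak, and the nearest one was 97.4 kb away. No test was made of this list, which is one of 21 read in each genotype.

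**Figure D5:**
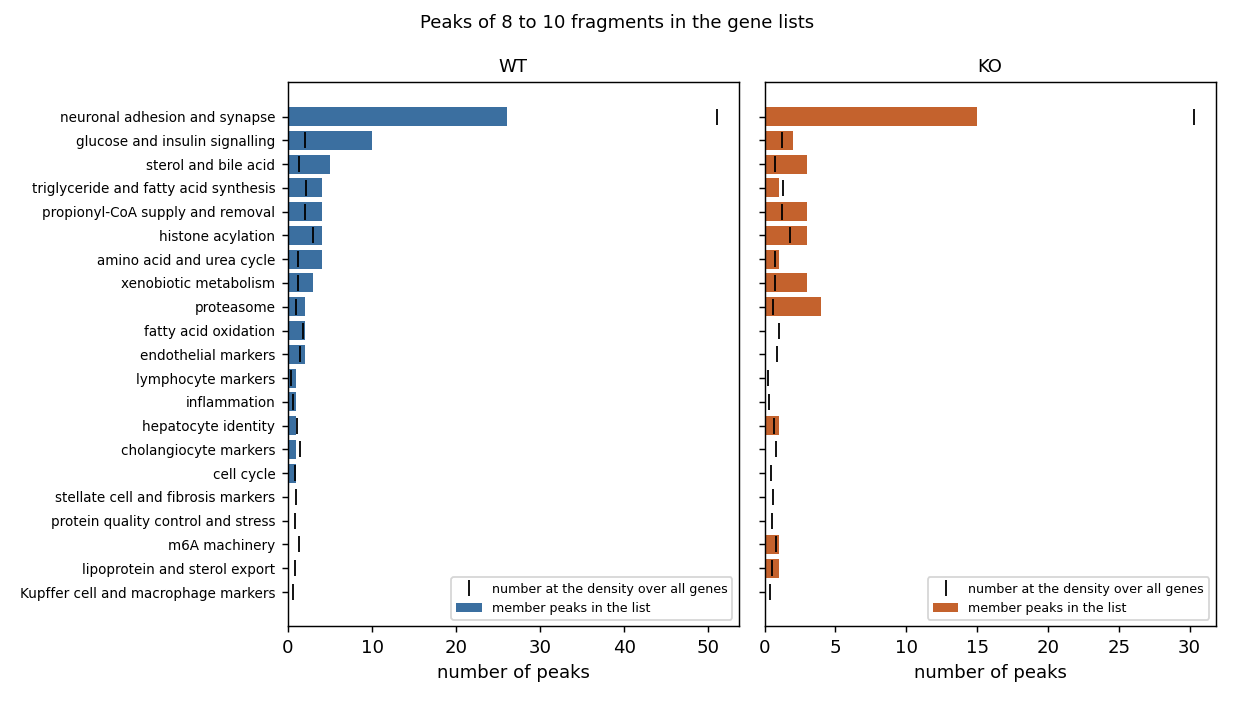
Number of members (bars, x axis) in each of 21 gene lists (y axis) for WT and KO, with ticks at the number that the list's length would give at the density over all genes. Each bar is 1 library. Glucose and insulin signalling has 10 WT members at a tick of 2.03, and neuronal genes have 26 WT and 15 KO members at ticks of 51.1 and 30.3.

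Sterol and bile acid genes had 5 members in 3 WT genes and 3 in 3 KO genes, where density would give 1.27 and 0.754. In WT these were Abcc2 (the canalicular conjugate exporter) and Akr1d1 (bile acid synthesis) with 2 each and Nr1h4 (the bile acid receptor FXR). In KO they were Abcb11 (the bile salt export pump), Cyp7b1 (the acidic pathway of bile acid synthesis) and Abcc2, all with 8 fragments as their strongest member. Nr1h4 held no KO member but had a KO peak of 12 fragments, above the range of members. Of proteasome genes, Psmd11 and Psmd13 held a WT member, and Psmb7 (with 2), Psmc2 and Psmd13 a KO member. The 4 KO members compare with 0.586 at the overall density. The one at Psmd13, which is also the Sirt3 peak, had a fold of 3.63 over a background of 1.48, against a lowest KO level of 0.568. Psmd14 itself held no member in either list. Its 7 WT and 10 KO peaks had at most 6 and 7 fragments, so this does not check the knockout.

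Genes of propionyl-CoA supply and removal had 4 WT members, in Pcca (propionyl-CoA carboxylase), Hibch (valine breakdown), Acsm5 and Acox2 (bile acid and branched-chain oxidation). They had 3 KO members, in Pcca, Acsm1 and Acss3 (a propionate-activating synthetase). The density would give 2.07 and 1.23. All these members had 8 or 9 fragments, but Pcca with the 2 kb around it also held a KO peak of 49 fragments, above the range of members. The Hibch member overlapped a KO peak of lower strength, and the Pcca WT member was 110 bp from a KO peak of 5 fragments. The Acox2 and Acsm5 members stood over raised backgrounds of 2.18 and 1.45, with folds of 3.15 and 3.67. Histone acylation genes had 4 in WT, among them those in Ep300 (9 fragments), Sirt3 and Yeats2, and 3 in KO, in Hdac2 (9 fragments), Mllt3 and Sirt3. Ep300 had no KO peak. The numbers of histone acylation members at the overall density would be 3.02 and 1.80.

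Fat synthesis had 4 WT members, in Acaca, Acacb, Elovl6 and Fasn, enzymes of fatty acid synthesis and elongation, and 1 in KO, in Me1, which supplies NADPH. The density gives 2.14 and 1.27. Fasn had 9 fragments and Acacb 8, and neither had a KO peak. The Fasn member stood over a raised background of 1.51, with a fold of 3.99. KO peaks were few around both genes, with 0 in the 1 Mb window of Fasn and 1 in that of Acacb. WT had 16 and 15 peaks there, so the lack of KO peaks is not particular to these genes. Fatty acid oxidation had Decr1 (9 fragments) and Ppargc1a (8) in WT and none in KO, where density would give 1.74 and 1.03. Xenobiotic genes had 3 members in each list, in Arnt and Fmo5 in WT and Ugt1a1 and Ugt2b36 in KO, where it would give 1.19 and 0.709. The 2 Ugt1a1 peaks, of 8 and 10 fragments, lie where all 9 Ugt1a genes overlap and are counted once here. The amino acid list had 4 members in WT and 1 in KO, where it would give 1.22 and 0.724. They lay in Kynu and Slc25a13, among others, in WT and in Tdo2 in KO, of which the Tdo2 peak overlapped a WT peak. The remaining metabolic entries were Abca1 of sterol export and Ythdf2 of m6A reading, in KO with 8 fragments each.

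Genes that define cell types held too few members to be placed against the overall density. Of 36 hepatocyte identity genes 1 held a member in WT and 1, Tdo2, in KO, where the density would give 1.09 and 0.646. In WT the endothelial marker Dpp4 held 2, the cholangiocyte marker Alcam 1 and the lymphocyte marker Lck 1, where the density of their lists would give 1.49, 1.39 and 0.389. The same lists held 0 members in KO, where the density would give 0.883, 0.823 and 0.231. Kupffer and stellate cell markers had 0 in both, where it would give 0.63 and 1.01 in WT. Genomic DNA is the same in all cells, so this does not measure their number. Neuronal adhesion and synapse genes, which are long and mainly active in the brain, lay below the density over all genes in both lists. They held 26 WT and 15 KO members where that density would give 51.1 and 30.3, and 881 and 842 peaks of any strength, where it would give 1122 and 856. They had 0.551 WT members per Mb, against 0.978 in the longest class of all genes, and 0.318 in KO against 0.609. Gene families are read beside the shares over all genes, 5.15% in WT and 2.89% in KO. Solute carriers held members in 26 of 362 genes in WT (7.18%) and 9 in KO (2.49%), and cytochrome P450 genes in 4 and 6 of 99 (4.04% and 6.06%). ABC transporters had 5 and 7 of 48 (10.4% and 14.6%), potassium channels 8 and 3 of 92 (8.70% and 3.26%) and phosphodiesterases 7 and 2 of 26 (26.9% and 7.69%). Olfactory receptors had 1 and 1 of 1104 and vomeronasal receptors 0 and 6 of 352. Olfactory receptor genes are short, and the shortest class of all genes had 0.702% and 0.194%. Gene length was not matched in these family counts. The WT counts include Slc4a1ap, Kcnip4 and Pde4dip, which carry a family symbol but are named as adaptor or interacting proteins.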

How the data were processed

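ChIP-seq of H3K23pr was compared in 4 libraries, an IP and an input of each genotype, grouped by their titles. The submitters' processing notes name cutadapt 1.9.3, Bowtie2 2.2.4 and the mm10 build. Per the file headers, MACS 2.1.1.20160309 called peaks per library against its own input, at a p cutoff of 0.001 and with at most 2 fragments of the same ends. That filter left 13615838 WT and 15468265 KO fragments of IP, beside 9385834 and 10000823 of input.

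The pileup deposited by the authors is a signal, the fragments over a summit. The deposited fold is a ratio of pileup to local background with 1 added to both, from which the background was computed. The deposited p-value and q-value are −log10 values. Peak lengths and positions are in bp. The headers say that q was not calculated, but the column holds values.

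Peaks were placed by midpoint on RefSeq GRCm38.p6 genes. Strand was known for the 16457 of 20665 coding genes with a promoter window, and exons were not used here. Lengths run from 3 Mb of each chromosome to the last gene or peak. With 1 library per group no genotype test was made, and counts and intervals were computed with Python 3.11.15, pandas 2.3.3 and SciPy 1.17.1. The interval and distance functions were tested on simulated data. Named genes were, per list, the 10 with the lowest caller p near gene ends, the 5 with the most members, the 10 best ranked with both, up to 3 per gene list, the pairs within 1 kb, and Psmd14, Mettl3 and Acss3 (Mettl3 held 0 members), without predicted genes in the first 3. Names outside this rule (lists given in full, dense and gene-rich windows, promoters) were taken after seeing their values. The members and lists were chosen with earlier results of these data known. Of 563 listed symbols 553 matched autosomal coding genes, 9 lay on X or Y and 1 (Trac) was not matched. A few listed genes are counted but not reported here by name.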

Additional observations from a re-analysis of the deposited data

Results flagged for a closer look

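Chromosomes X and Y were outside the autosomal set but carried peaks of the same strength. In WT 12 of 887 peaks on X and 4 of 115 on Y had 8 to 10 fragments, and in KO 7 of 694 and 5 of 91. They were listed because they are signals in data that the comparisons above did not use, and IP peaks were called against input. The libraries are from males, with 1 X and 1 Y chromosome to each pair of an autosome.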

How the results depend on the processing

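No paired analysis was possible because each genotype had 1 library and no replicate numbers. Of 56 values recomputed under other settings, 30 stayed within their interval or within 1.5 times of a count, and the cause of the others was not tested beyond what each setting does. Members of 9 or 10 fragments alone numbered 592 in WT and 336 in KO. They lay in 330 and 179 genes, 14 and 8 of them listed, and 11.0% and 21.4% had another within 100 kb. The share near a gene end was 3.87% in WT and 2.78% in KO with a 1 kb limit, 16.8% and 15.8% with 5 kb, and 14.6% and 12.7% with all genes, noncoding ones included. Counting gene ends alone gave 210 and 91 genes. The share with a peak of the other genotype was 1.49% in WT and 2.94% in KO for overlap, 20.1% and 27.4% within 5 kb, 4.25% and 6.21% against peaks of at least 5 fragments, and 0.653% and 1.14% against peaks of 8 to 10. With a background of at most 2 times the lowest, 19.6% of WT members had another within 100 kb. Without the dense windows, an alternative chosen after seeing the data, 18.2% of KO members did. A summit of 8 to 10 fragments, which can be 4 or 5 different ones, limits what any single peak shows.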
